A study of Rattus norvegicus with 22 samples.

Results

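Neurotransmitter receptors are the membrane proteins through which cells of the brain sense transmitters, and the 94 receptor genes described here were taken from rat 9 L tumor and from the opposite, contralateral, side of the brain, with and without microbeam radiation therapy (MRT). The genes were chosen by symbol alone: every gene whose array annotation gave a single symbol of the GABA-A, GABA-B, AMPA, kainate, NMDA, metabotropic glutamate, nicotinic, muscarinic, serotonin, dopamine, alpha-adrenergic or beta-adrenergic receptor families. They are 94 of 13718 genes with a single symbol and lie on 133 of 31042 probe sets. A gene with several probe sets is represented by the one with the highest mean signal over all arrays; 68 genes had 1 probe set and 26 had several. The families hold 19 GABA-A, 2 GABA-B, 4 AMPA, 5 kainate, 7 NMDA, 8 metabotropic glutamate, 16 nicotinic, 5 muscarinic, 14 serotonin, 5 dopamine, 6 alpha-adrenergic and 3 beta-adrenergic receptor genes.

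Tissue came from 11 male Fischer rats that all carried 9 L gliosarcoma cells, a rat tumor line, implanted in the right caudate nucleus. Rats 1 to 5 were implanted but not irradiated (untreated), and rats 6 to 11 received MRT on day 10 after implantation, an array of parallel X-ray microbeams with 400 Gy in the beams and 18 Gy in the valleys between them, and were sampled 6 h later. Tumor and contralateral tissue were punched from brain sections of every rat, which gives 22 arrays: 5 untreated contralateral, 6 MRT contralateral, 5 untreated tumor and 6 MRT tumor. The model is 1 transplanted cell line in 1 rat strain, the contralateral samples are brain of tumor-bearing rats and not of healthy ones, and no array came from a rat without a tumor.

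Glutamate acts on AMPA, kainate and NMDA receptors, which are ion channels built from 4 subunits, and on metabotropic receptors, which signal through G proteins. GABA opens the chloride channels of GABA-A receptors and activates the G protein-coupled GABA-B receptor, acetylcholine acts on nicotinic channels and muscarinic G protein-coupled receptors, and dopamine, serotonin, noradrenaline and adrenaline act almost entirely on G protein-coupled receptors. Most of these genes are known from neurons, but several, among them Grm3, Grin2c, Gabrg1 and Adra1b, are also known from astrocytes. In the striatum, to which the caudate nucleus belongs, the projection neurons carry dopamine D1 or D2 receptors.

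Levels below are log2 RMA signal, an array brightness in arbitrary units that carries no read depth and whose precision is limited by the number of arrays. Levels of different genes are not comparable on this scale, so each gene is compared only with itself across samples. The 25th percentile of all signals, 5.86, marks the dim end, and 18 of the 94 genes had means below it in all 4 groups. Differences are given as log2 fold change ± standard error, group levels as mean ± SD, and a gene was called when its p in limma, adjusted by Benjamini-Hochberg over all 31042 probe sets, was under 0.05. The receptor genes varied within groups about as much as other genes in contralateral tissue (median SD 0.22 untreated and 0.20 MRT, against 0.18 and 0.20 over all genes) and slightly more in untreated tumor (0.30 against 0.24).

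The tissue labels were checked against marker genes. All 5 mesenchymal and all 6 proliferation markers were higher in tumor, with median differences of 3.73 and 5.73 in untreated rats. Neuronal markers were lower but far from absent: the mean level of 10 neuron markers was 13.01 to 13.30 in untreated contralateral and 11.75 to 12.73 in untreated tumor samples. The tumor samples thus held neuronal RNA, and in bulk tissue fewer cells of a type and less RNA per cell cannot be told apart. The rats were split by the 5′ to 3′ gap of the labelling controls on their contralateral arrays. This gave 5 with a flat gap (rats 1, 5, 9, 10 and 11) and 6 with a steep gap (rats 2, 3, 4, 6, 7 and 8), and both sets hold both treatments.

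Among the 94 receptor genes, 3 changed 6 h after MRT in contralateral tissue: 1 fell and 2 rose. Grm7 fell by 0.56 and Chrnb4 rose by 1.24 on the log2 scale. Calls were made for 5.8% of all genes in this comparison (4.42% of genes higher, 1.38% lower), so the receptor share, 3 of 94 (3.19%), was not above the background. Between the groups, 61 of 94 differences were negative, against 6888 of 13718 over all genes. The 94 differences had a median of -0.05 and ran from -0.56 to 1.24, while the median over all genes was 0.00. None of the 10 neuron markers was called.

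Grm7 (1369781_at) encodes metabotropic glutamate receptor 7, a presynaptic receptor that lowers transmitter release. Its level in untreated contralateral tissue was 8.06, 8.05, 8.16, 8.05 and 7.95 in rats 1 to 5, and after MRT it ran from 7.43 to 7.63 with a median of 7.48. The groups were far apart relative to their spread and did not overlap. The mean went from 8.06 ± 0.07 to 7.50 ± 0.07, a difference of -0.56 ± 0.07 (1.47-fold lower, limma adjusted p = 0.000363). The call held with any 1 rat left out (adjusted p = 0.000331 to 0.00178). It was lost when all 4 groups shared 1 spread estimate (adjusted p = 0.487), a fit that takes in the wider spread of the tumor samples, where the SD of Grm7 was 0.78 and 0.53. Within the flat set the difference was -0.51 (adjusted p = 0.0324) and within the steep set -0.60 (adjusted p = 0.121).

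Chrnb4 (1398623_at) encodes the nicotinic β4 subunit, which in neurons usually assembles with the α3 subunit encoded by Chrna3. Chrnb4 was dim in untreated contralateral tissue, at 4.70, 4.95, 5.32, 4.95 and 5.25 in rats 1 to 5, all below the 25th percentile of signals. MRT rats 6 to 11 gave 6.29, 6.87, 5.64, 6.95, 6.02 and 5.86, and the groups did not overlap. The mean rose from 5.04 ± 0.25 to 6.27 ± 0.54, by 1.24 ± 0.23 (2.36-fold, adjusted p = 0.00573). With all dimmer signals raised to that percentile, the difference shrank to 0.45 (adjusted p = 0.481), and a second Chrnb4 probe set (1369405_a_at) gave 0.29 ± 0.15 (adjusted p = 0.470).

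Chrna3, named here after its values were seen because it lies next to Chrnb4 and pairs with it in the receptor, was not called, but the same MRT rats, 7 and 9, were highest for both genes. Its level was 5.64, 5.64, 6.21, 5.83 and 5.46 in untreated rats 1 to 5, and 6.34, 7.84, 6.09, 8.46, 5.64 and 5.61 in MRT rats 6 to 11 (0.91 ± 0.46, adjusted p = 0.468). The mean of 4 thalamus markers (Lef1, Prkcd, Slc17a6 and Rora) was highest in those rats too, at 10.02, 10.39, 9.29, 10.78, 9.28 and 9.14 in MRT rats 6 to 11 against 9.24 to 9.49 in untreated rats. With rats 7 and 9 left out, an alternative chosen after seeing the data, Chrnb4 differed by 0.92 (adjusted p = 0.003) and Grm7 by -0.55 (adjusted p = 0.0015). The count was 3 with the same genes. Rat 6 remained in that fit, with a thalamus marker mean of 10.02, above every untreated rat. Of the 4 thalamus markers 0 were called after MRT in contralateral tissue, and 1 had a negative difference. Whether the thalamic content of the punch had a part in the Chrnb4 levels of any rat was not tested.

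In the same comparison 4 of 6 microglia and macrophage markers were lower and 2 higher, with the list mean at 8.20 to 8.45 untreated and 7.58 to 7.94 after MRT. Of 6 endothelial markers 3 were lower, with the list mean at 8.95 to 9.12 untreated and 7.78 to 8.76 after MRT. The part of these cell types in the Grm7 and Chrnb4 differences was not tested.

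**Figure D1:**
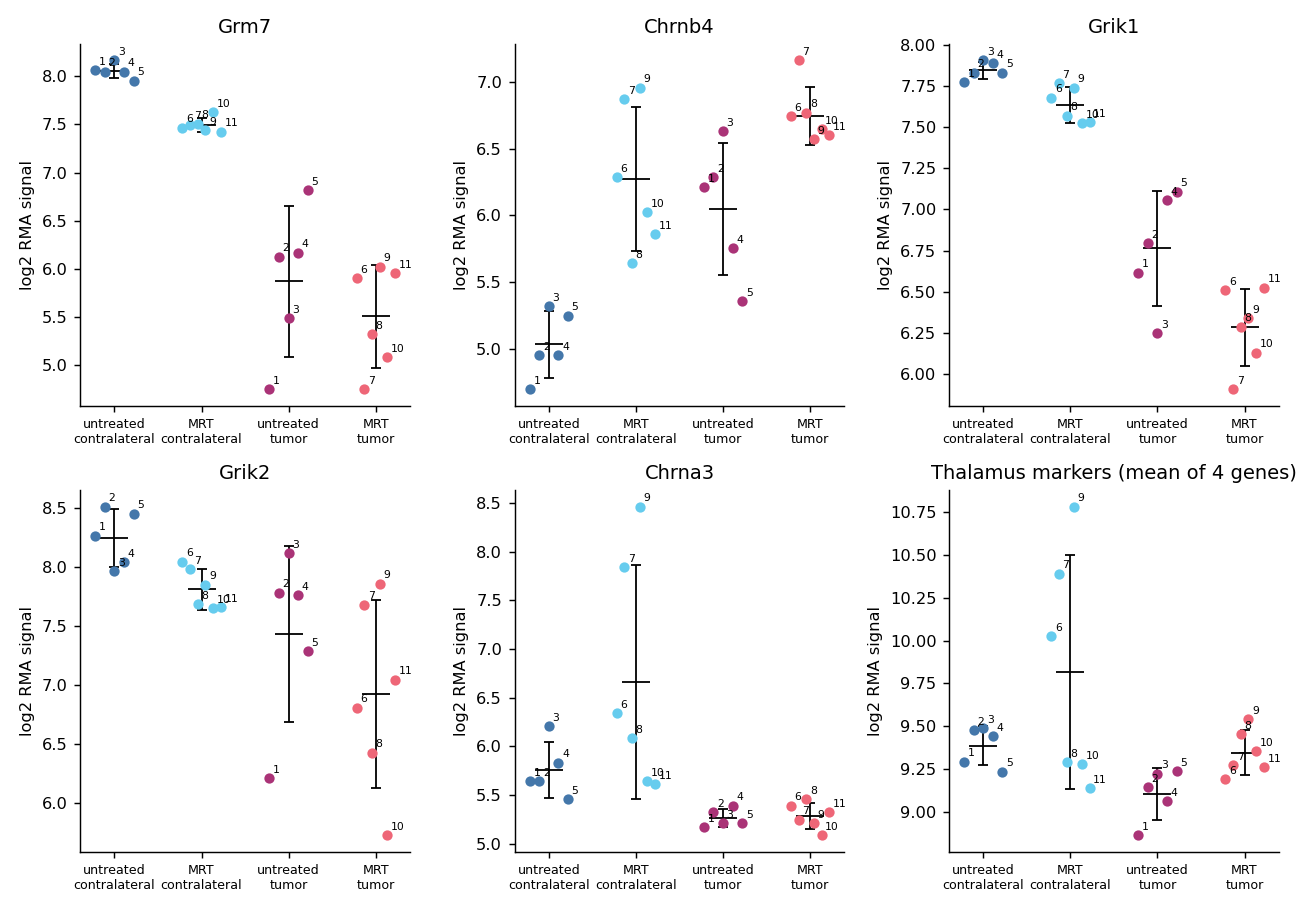
Log2 RMA signal (vertical axis) of Grm7, Chrnb4, Grik1, Grik2 and Chrna3 and of the mean of 4 thalamus markers, 1 point per rat (labelled with its number) in each of the 4 groups, with bars for the group mean and SD. Grm7 separates in contralateral tissue and overlaps in tumor, and Chrnb4 is higher after MRT in contralateral tissue, where untreated rats lie at 4.70 to 5.32.

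The next genes by p did not pass. Grik2, a kainate receptor subunit, was 8.25 ± 0.24 untreated and 7.81 ± 0.17 after MRT (-0.43 ± 0.12, adjusted p = 0.0712), and it passed in SAM, with rat 3 left out (adjusted p = 0.0325) and with rat 7 left out (adjusted p = 0.0411). Grik1, another kainate subunit, was 7.77 to 7.91 untreated and 7.52 to 7.77 after MRT, groups that met at this rounding but did not overlap (-0.21 ± 0.08, adjusted p = 0.202). Chrm2, the M2 muscarinic receptor, gave -0.24 ± 0.08 (adjusted p = 0.195). Of the 94 genes, 2 (Grm7 and Grik1) were lower without overlap and 2, Chrnb4 among them, were higher. Over all genes, 3.94% had every MRT sample above every untreated one and 1.33% had every one below. In all, 10 of 94 receptor genes had an unadjusted limma p under 0.05, against 2128 of 13718 over all genes. Family medians lay between -0.24 (muscarinic) and 0.06 (serotonin).

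Of 87 measured genes that work beside the receptors, 4 were called, all lower (4.6%, against 1.38% of all genes called lower), and the part of cell content in them was not tested. Of 26 measured genes for transmitter synthesis, uptake and breakdown, 2 fell: Maob, which breaks down monoamines, by 0.41 (adjusted p = 0.0163), and Slc6a13, a GABA transporter of the meninges and vessels, by 0.54 (adjusted p = 0.0418). Of 34 measured receptor scaffolds and trafficking genes only Nlgn1, a postsynaptic adhesion protein, changed, and it fell by 0.57 (adjusted p = 0.0272). Among 27 other transmitter receptors only Adora3, an adenosine receptor, changed, and it fell by 0.92 (adjusted p = 0.00151).

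Promoter sequence is shown for Grm7 and Chrnb4, called after MRT, and for Chrna3, its neighbour. Each is 300 bases on the gene's strand, from 250 before to 50 after the annotated start, from RefSeq on build GRCr8. Capitals mark the GC box GGGCGG or its reverse complement. Grm7 lies on the plus strand at chr4:145286476-145286775, Chrnb4 on the minus strand at chr8:64333060-64333359, and Chrna3 on the minus strand at chr8:64311202-64311501. Chrna5, Chrna3 and Chrnb4 are consecutive protein-coding genes there.
Grm7: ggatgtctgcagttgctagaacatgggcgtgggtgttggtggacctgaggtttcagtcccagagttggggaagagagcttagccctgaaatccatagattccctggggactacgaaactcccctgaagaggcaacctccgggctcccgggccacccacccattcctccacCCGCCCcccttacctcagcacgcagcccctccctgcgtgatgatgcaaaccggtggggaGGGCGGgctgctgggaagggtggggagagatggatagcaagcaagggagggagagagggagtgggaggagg
Chrnb4: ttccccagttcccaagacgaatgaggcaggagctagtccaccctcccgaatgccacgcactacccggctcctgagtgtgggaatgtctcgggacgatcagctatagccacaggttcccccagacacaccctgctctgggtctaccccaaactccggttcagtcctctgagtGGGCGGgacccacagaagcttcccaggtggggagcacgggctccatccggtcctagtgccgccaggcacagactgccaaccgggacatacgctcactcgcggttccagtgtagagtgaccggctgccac
Chrna3: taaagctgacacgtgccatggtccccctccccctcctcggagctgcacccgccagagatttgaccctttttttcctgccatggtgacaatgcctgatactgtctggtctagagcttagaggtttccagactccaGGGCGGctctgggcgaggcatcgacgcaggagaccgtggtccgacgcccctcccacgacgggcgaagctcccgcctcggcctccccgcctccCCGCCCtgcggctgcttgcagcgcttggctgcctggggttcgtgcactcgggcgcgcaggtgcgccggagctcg
Of the 94 genes, 68 matched an entry in the promoter table. The GC box, searched on both strands, was present in 32 of these 68 windows (47.1%) and in 33.1% of all 33469 windows of the same length. The AP-1 motif TGANTCA was in 0 of 68 (7.33% of all), and the CRE half-site TGACG in 12 of 68 (17.6%, against 21.2% of all), both strands again. These matches describe letters in the window and no binding was measured.

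In the tumor, limma called 0 of the 94 receptor genes after MRT, SAM also called 0, and 6 genes had an unadjusted p under 0.05. Over all 13718 genes, calls were made for 1.28%, and 1428 had an unadjusted limma p under 0.05. The median difference was 0.01, with a range of -0.51 to 0.82. Chrnb4 came closest: untreated tumors 1 to 5 gave 6.21, 6.29, 6.63, 5.75 and 5.36, and MRT tumors ran from 6.57 to 7.16 with a median of 6.69, so only the untreated tumor of rat 3 reached the MRT range (0.70 ± 0.20, limma adjusted p = 0.215). Its second probe set gave 0.13 (adjusted p = 0.862). The other 5 genes were Grik1 (-0.48 ± 0.17), the nicotinic subunit genes Chrna5 (-0.25 ± 0.09) and Chrnd (0.29 ± 0.11), the kainate subunit gene Grik4 (-0.39 ± 0.17) and Chrm3, the M3 muscarinic receptor (-0.42 ± 0.19), with adjusted p from 0.354 to 0.57. Every tumor value of Chrna5, 4.32 to 5.00, lies below the 25th percentile of signals, 5.86. No gene of the 3 companion lists was called in tumor.

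Grm7 was not called in tumor, where its values within a group were spread more widely. Grm7 was 4.75, 6.13, 5.49, 6.17 and 6.82 in untreated tumors and 4.75 to 6.02 in MRT tumors (-0.37 ± 0.35, adjusted p = 0.933). Values of both tumor groups reached below the 25th percentile of signals, 5.86, where RMA compresses differences. Whether the response to MRT differed between tumor and contralateral tissue was tested as an interaction over all 22 arrays. It called 0 of 94 receptor genes in limma, against 0.824% of all genes. An unadjusted p under 0.05 was found for 2 receptor genes, against 700 of 13718 over all genes. Htr1a, a serotonin receptor, was 1 of the 2, at 0.53 ± 0.23. A difference in response between the tissues was therefore not shown for any of the 3 genes.

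**Figure D2:**
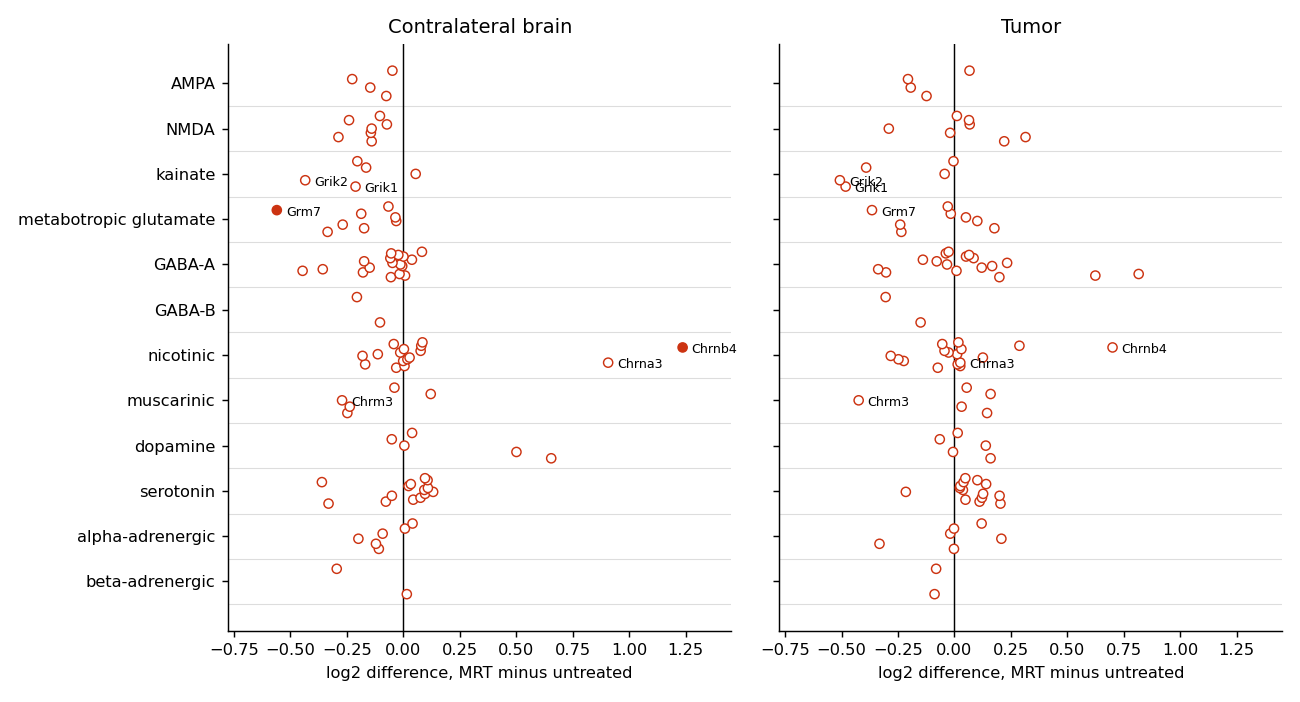
Log2 fold change of MRT against untreated rats for 91 of the 94 receptor genes (1 point per gene, grouped by family, filled where called), in contralateral tissue and in tumor. Most points lie near 0, with Grm7 at -0.56 and Chrnb4 at 1.24 called in contralateral tissue.

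The difference between tissues was far larger than that after MRT. In untreated rats, 68 of 94 receptor genes were lower in tumor than in contralateral tissue and 2 were higher, with a median difference of -0.75. In MRT rats, 69 were lower and 1 higher, with a median of -0.77. Lower calls made up 28.6% of all genes in untreated and 30.6% in MRT rats, and higher calls 30% and 29.2% (either direction 58.6% and 59.8%), and the median over all genes was -0.05 and -0.06. Groups without overlap, tumor below contralateral, were found for 53 receptor genes in untreated and 41 in MRT rats (21.1% and 18.3% of all genes). The 2 comparisons use different rats. The gap of the labelling controls moved with the tissue as well: it was steeper in tumor in 5 of 5 untreated rats (-1.16 to -2.73 on the log2 scale, against -0.82 to -1.70 in contralateral tissue) and in 5 of 6 MRT rats (-0.96 to -2.50, against -0.85 to -1.85), and its part in the tissue differences was not tested. All 26 genes with several probe sets were free of opposite calls, and 24 of the 39 additional probe sets were lower in untreated tumor and none higher.

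The ionotropic glutamate receptors were lower across families. All 4 AMPA genes were called lower in both treatments (medians -1.17 and -1.11). Gria2, the subunit that keeps AMPA channels from passing calcium, was 13.28 to 13.83 in untreated contralateral and 11.70 to 13.08 in untreated tumor tissue, without overlap, at 13.60 ± 0.21 against 12.62 ± 0.56 (-0.98 ± 0.23, 1.97-fold, adjusted p = 0.00473). Of 7 NMDA genes 5 were lower in both treatments (medians -1.17 and -1.01). Grin1, the subunit required in every NMDA receptor, fell from 11.14 ± 0.40 to 9.54 ± 0.53 (-1.61 ± 0.26, 3.05-fold, adjusted p = 0.000403). Grin2a, a subunit of mature synapses, was 8.50, 7.08, 6.36, 7.88 and 8.40 in contralateral and 5.83, 4.70, 4.17, 5.13 and 7.17 in tumor tissue of untreated rats 1 to 5. The groups overlap, but each rat was lower in its own tumor (-2.24 ± 0.56, 4.73-fold, adjusted p = 0.0059, and -1.64 in MRT rats). In tumor 4 of these 5 values lie below the 25th percentile of signals, and with dim signals raised to it the difference was -1.52 (adjusted p = 0.0286). The 2 NMDA genes not called were Grin2d and Grin3b, at -0.16 and 0.01. Of 5 kainate genes 4 were lower (medians -0.82 and -0.89), with Grik5, a modulatory subunit, at -1.34 ± 0.23 (adjusted p = 0.000614) and Grik3 alone not called.

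Every one of the 8 metabotropic glutamate receptor genes was lower in tumor, in both treatments (medians -1.11 and -0.996). Grm7 had the largest difference of the family, at -2.18 ± 0.30 in untreated rats (4.54-fold, adjusted p = 0.000169) and -1.99 in MRT rats, where the contralateral level was the lower one after MRT. Grm2, a presynaptic receptor, fell from 10.13 ± 0.11 to 8.30 ± 0.61 (-1.84 ± 0.24, 3.57-fold, adjusted p = 0.000128). Grm3, known from astrocytes as well as neurons, fell from 11.39 ± 0.18 to 10.05 ± 0.59 (-1.34 ± 0.24, adjusted p = 0.000815).

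GABA receptors followed the same direction. Of 19 GABA-A genes, 13 were lower in untreated and 15 in MRT rats (medians -1.30 and -1.13), and both GABA-B genes were lower in both. Gabra4, a subunit of extrasynaptic receptors in striatum and thalamus, showed the largest decrease of all 94 genes: 10.08, 8.71, 8.64, 9.16 and 10.02 in contralateral and 6.85, 6.13, 6.48, 6.55 and 8.94 in tumor tissue of untreated rats 1 to 5 (-2.33 ± 0.50, 5.04-fold, adjusted p = 0.00244). Only the tumor of rat 5 reached the contralateral range. Gabra3, a further channel subunit, differed by -1.88 ± 0.27 (adjusted p = 0.000191), or -1.32 with dim signals raised to the 25th percentile (adjusted p = 0.000496). Gabbr1, which binds GABA in the GABA-B receptor, fell by 1.04 on the log2 scale (adjusted p = 0.000599). The GABA-A genes that were not called in either treatment, Gabrq, Gabrp, Gabrr2 and Gabre, differed by -0.21 to -0.12 in untreated rats.

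**Figure D3:**
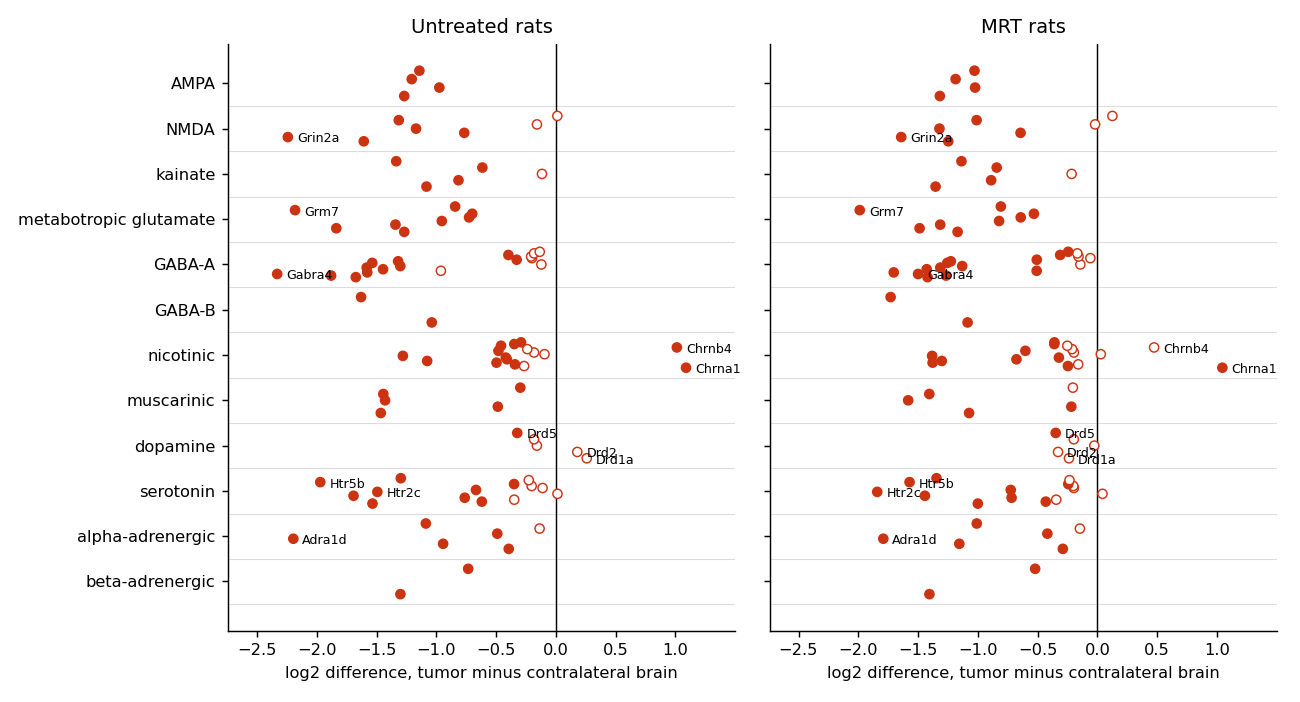
Log2 difference of tumor minus contralateral tissue for 91 of the 94 receptor genes (1 point per gene, grouped by family, filled where called), in untreated and in MRT rats. Points of the glutamate and GABA families lie mostly between -0.5 and -2.3, and the 2 points near 1 in the nicotinic family of untreated rats are Chrna1 and Chrnb4.

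Acetylcholine receptors divided. All 5 muscarinic genes were lower in untreated and 4 in MRT rats (medians -1.43 and -1.07), with Chrm3 falling from 9.46 ± 0.14 to 8.03 ± 0.48 (-1.43 ± 0.20, adjusted p = 0.000171). Of 16 nicotinic genes, 10 were lower and 2 higher in untreated rats, and 9 lower and 1 higher in MRT rats (medians -0.35 and -0.29). Chrna7, which forms channels by itself, fell from 9.39 ± 0.13 to 8.11 ± 0.43 (-1.28 ± 0.18, adjusted p = 0.000191).

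The 2 receptor genes higher in tumor were both nicotinic. Chrna1 (1369843_at), the α1 subunit of the muscle receptor, was 6.30, 6.04, 6.39, 6.49 and 6.09 in contralateral and 7.89, 7.71, 7.81, 7.38 and 5.98 in tumor tissue of untreated rats 1 to 5. In 4 rats the tumor stood clearly above the contralateral side, and in rat 5 it did not. The tumor of rat 5 also differed in markers. Its microglia and macrophage marker mean was 10.46, against 8.81 to 8.98 in the other untreated tumors. Its proliferation marker mean was 10.54, against 11.34 to 12.02. The part of this tumor's cell content in its receptor levels was not tested. The difference was 1.09 ± 0.31 in untreated rats (adjusted p = 0.0131) and 1.05 ± 0.24 in MRT rats (adjusted p = 0.00264), where the level went from 6.23 ± 0.18 to 7.28 ± 0.65. The untreated call was lost without rat 1 (adjusted p = 0.051), rat 2 (0.0721) or rat 3 (0.0544). Chrnb4 was higher by 1.01 ± 0.22 in untreated rats (adjusted p = 0.00268), with no overlap between 4.70 to 5.32 and 5.36 to 6.63 (22.6% of all genes were higher without overlap). In MRT rats, where the contralateral level was higher than in untreated rats, it differed by 0.47 ± 0.21 (adjusted p = 0.0768, and 0.0311 with each rat as a block). Its neighbour Chrna3 went the other way, with -0.50 ± 0.13 in untreated rats (adjusted p = 0.00868) and -1.38 ± 0.43 in MRT rats (adjusted p = 0.0156). Chrna3 differed by -2.59 and -3.25 in MRT rats 7 and 9, and by -0.95 to -0.29 in MRT rats 6, 8, 10 and 11. All Chrna3 tumor values, 5.09 to 5.46, lie below the 25th percentile of signals, as do the untreated contralateral values except that of rat 3. The second Chrnb4 probe set gave -0.23 in untreated rats, and with dim signals raised to the 25th percentile Chrnb4 was not called (0.31, adjusted p = 0.112). Over the 11 rats, Chrna1 and Chrnb4 were each lower in tumor in only 1.

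Monoamine receptors ranged from large decreases to genes that were not called. Of 14 serotonin receptor genes 9 were lower in both treatments (medians -0.64 and -0.57). Htr5b fell from 5.83, 7.38, 6.55, 7.34 and 6.07 in contralateral to 4.75, 4.58, 4.75, 4.75 and 4.46 in tumor tissue of untreated rats 1 to 5, a dim level in tumor (-1.97 ± 0.28, adjusted p = 0.000195). After raising dim signals to the 25th percentile this was -0.78 (adjusted p = 0.0694). Of 6 alpha-adrenergic genes 5 were lower in both treatments, led by Adra1d, at 9.62 to 10.24 in contralateral and 6.86 to 8.50 in tumor tissue (-2.20 ± 0.26, 4.59-fold, adjusted p = 6.23e-05). Adrb1, the β1-adrenergic receptor, fell by 1.30 ± 0.19 (adjusted p = 0.00027).

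Htr2c, the serotonin 2C receptor, is abundant in choroid plexus, the epithelium that secretes cerebrospinal fluid. Its level was 9.89, 11.62, 11.09, 10.89 and 11.05 in contralateral and 7.44, 10.32, 10.26, 10.57 and 8.47 in tumor tissue of untreated rats 1 to 5 (-1.49 ± 0.57, adjusted p = 0.0475). It was lower in the tumor of all 11 rats, but the call was lost without rat 2, 3, 4 or 5 (adjusted p = 0.0514 to 0.139). The mean of 4 choroid plexus and ependyma markers was 6.32, 9.71, 9.34, 9.01 and 9.36 in contralateral and 6.40, 8.92, 6.64, 9.18 and 6.54 in tumor tissue of the same rats. Its part in the Htr2c difference was not tested.

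Dopamine receptors were the family with the fewest calls: 1 of 5, Drd5, was lower, at -0.32 ± 0.11 in untreated rats (adjusted p = 0.0273, and 0.056 with each rat as a block). The mean of Drd5 was 4.84 in untreated contralateral and 4.52 in untreated tumor tissue. In MRT rats the means were 4.88 and 4.53. All 4 means lie below the dim-end mark of 5.86, where RMA compresses differences. Drd1a, the D1 receptor, current symbol Drd1, was 8.34, 9.16, 10.16, 8.99 and 9.20 in contralateral and 7.22, 10.59, 11.42, 9.68 and 8.24 in tumor tissue of untreated rats 1 to 5. The tumor values lay on both sides of the contralateral ones, higher in rats 2, 3 and 4 and lower in rats 1 and 5. In MRT rats 6 to 11 Drd1a was 9.85, 11.04, 8.89, 10.79, 9.05 and 9.35 in contralateral and 9.82, 11.53, 7.78, 11.88, 7.24 and 9.29 in tumor tissue, again on both sides. The differences were 0.26 ± 0.69 (adjusted p = 0.77) and -0.24 ± 0.74 (adjusted p = 0.804), with tumor SDs of 1.71 and 1.89. The D2 receptor gene Drd2, added here after its values were seen, was 7.09, 7.89, 9.50, 7.74 and 7.43 in contralateral and 6.15, 9.09, 10.06, 8.18 and 7.06 in tumor tissue of untreated rats, with differences of 0.18 ± 0.69 and -0.33 ± 0.81.

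The same rats were high and low in other genes of the striatal projection neuron. The mean of 8 striatal markers was 9.57, 9.93, 11.22, 9.93 and 9.80 in contralateral and 8.42, 10.81, 11.64, 10.09 and 9.52 in tumor tissue of untreated rats 1 to 5. In MRT rats it was 10.39, 11.94, 9.80, 11.26, 9.83 and 10.05 in contralateral and 10.66, 11.75, 8.83, 12.17, 8.72 and 10.19 in tumor tissue. Of these markers 0 of 8 were called lower in tumor in either treatment in limma and 1 was called higher in untreated rats. Most differences were still negative: 5 of 8 in untreated rats (median -0.39, range -0.67 to 1.58) and 6 of 8 in MRT rats (median -0.34, range -0.73 to 1.05). By contrast, 6 of 6 cortical excitatory neuron markers and 10 of 10 neuron markers were called lower. The part of the punched region in the dopamine receptor levels was not tested.

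**Figure D4:**
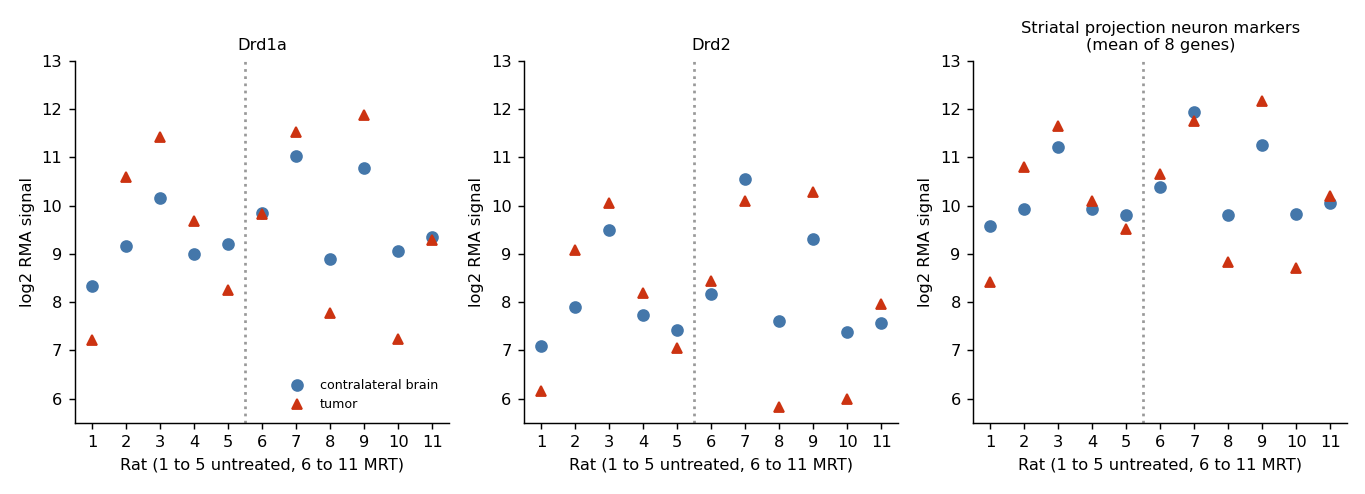
Level (vertical axis, log2 RMA signal) of Drd1a, of Drd2 and of the mean of 8 striatal markers in contralateral tissue (circles) and tumor (triangles) of each of the 11 rats (horizontal axis). In all 3 panels the tumor of rats 2, 3, 4 and 9 lies above that of rats 1, 5, 8 and 10.

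Rat by rat, the mean over the 94 genes was lower in tumor in all 11 animals. The difference was -1.06, -0.83, -0.91, -0.77 and -0.54 in untreated rats 1 to 5 and -0.74, -0.84, -0.95, -0.58, -0.92 and -0.60 in MRT rats 6 to 11. The mean of the 10 neuron markers differed by -1.49, -0.88, -1.16, -0.58 and -0.45 in rats 1 to 5 and by -0.86, -1.26, -1.002, -0.55, -1.27 and -0.51 in rats 6 to 11. Rats 5, 9 and 11 had the 3 smallest receptor differences and also the 3 smallest neuron marker differences. By gene, 58 of 94 were lower in tumor in all 11 rats, 12 in 10 and 10 in 9 (61.7%, 12.8% and 10.6%). Over all genes the shares were 24.8%, 7.92% and 6.17%. The part of neuronal content in the receptor differences was not tested. Genes also known from astrocytes were lower too, named here for that role: Grin2c at -1.17, Gabrg1 at -1.54 and Adra1b at -0.94 in untreated rats, while of 6 astrocyte markers 3 were lower and 2 higher.

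**Figure D5:**
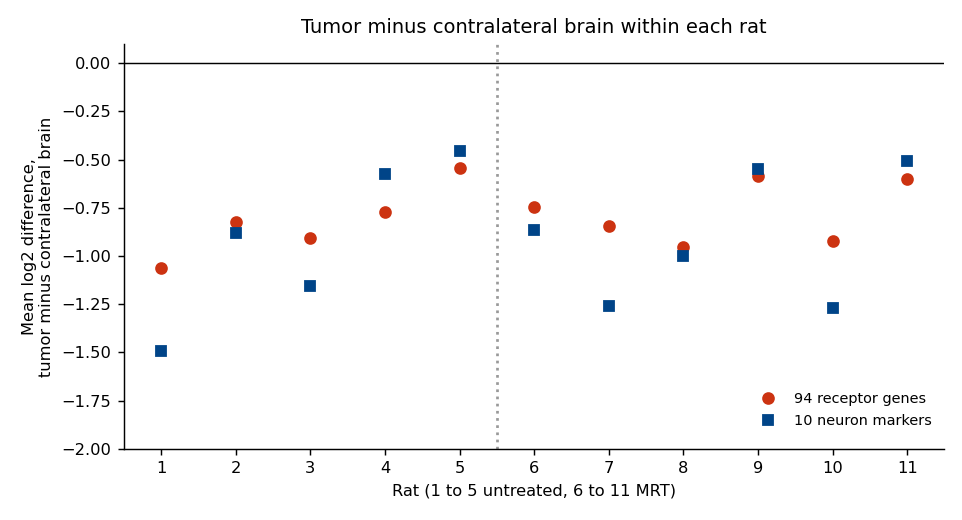
Tumor minus contralateral difference within each of the 11 rats (log2 scale) for the mean of the 94 receptor genes and for the mean of the 10 neuron markers. All values are below 0, from -0.54 to -1.06 for receptors and from -0.45 to -1.49 for neuron markers.

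Of 87 measured companion genes of transmission, 56 were lower in untreated tumor and 6 higher (64.4% lower, against 28.6% of all genes), and the share differed between the lists. Of 34 measured scaffold and trafficking genes, 28 were lower and 2 higher in untreated rats (27 and 2 in MRT rats). Grip1, which binds AMPA receptors, and Gabarap, which binds GABA-A receptors, were the 2 higher ones, at 0.80 and 0.30. Of 26 genes for transmitter synthesis, uptake and breakdown, 16 were lower and 1 higher (17 and 1 in MRT rats). The exception, named after its values were seen, was Slc6a4, the serotonin transporter, which went from 5.74 ± 0.48 to 9.83 ± 0.63 in untreated rats (4.09 ± 0.31, 17.1-fold) and from 5.85 ± 0.44 to 9.01 ± 0.54 in MRT rats (3.15 ± 0.25). Its lowest tumor value, 8.45, lay above its highest contralateral value, 6.30. Of 27 other transmitter receptors, 12 were lower and 3 higher (15 and 4 in MRT rats); the higher ones in untreated rats were the ATP-gated channels P2rx1 and P2rx4 and the adenosine receptor Adora2b, at 0.60, 0.71 and 0.62.

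Some receptor levels also differed between the sets of rats split by the labelling controls. In contralateral tissue 3 of 94 genes (3.19%), Gabra4, Grin3a and Grm5, were higher in every flat-gap rat than in every steep-gap rat, and none was lower. Over all genes 1.84% were higher and 2.42% lower, so this count was near the background share. The means of the 3 genes were 9.94 against 8.79, 7.54 against 6.50 and 7.10 against 6.74. In tumor 5 genes (5.32%) were higher without overlap, Gabra2, Grin2a, Grin3a, Chrm2 and Htr1f, and again none was lower (1.37% and 1.95% of all genes). The sets were made from the contralateral arrays. On the tumor arrays rat 6 of the steep set had a gap of -1.57, nearer to rat 1 of the flat set (-1.36) than to rat 3 of the steep set (-2.32). Grin2a in tumor was 6.52 in the flat set against 4.78 in the steep set. Within the flat and the steep set of untreated rats, tumor differed from contralateral tissue by -2.16 and -2.45 for Gabra4 and by -1.95 and -2.44 for Grin2a. The flat set holds only untreated rats 1 and 5, which lay far apart, at -3.24 and -1.08 for Gabra4 and -2.67 and -1.23 for Grin2a.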

How the data were processed

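Expression was measured on Affymetrix Rat Genome 230 2.0 arrays, 1 array for each tissue of each rat. The authors deposited RMA values made in Affymetrix Expression Console, background-corrected, quantile-normalized and summarized per probe set, as intensity on a linear scale in whole numbers from 10 to 36564; RMA compresses differences of dim probe sets, and rounding to whole numbers adds steps there. Present and absent flags were not used here, and arrays carry no read depth. The 57 control probe sets of 31099 were left out. Of the rest, 19546 carried 1 symbol, 372 several and 11124 none. Of the 94 symbols 93 are current in RefSeq.

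Here log2 of the signal was tested with limma 3.58.1 in R 4.3.3 (lmFit, eBayes) on the groups compared, with Benjamini-Hochberg adjustment over 31042 probe sets at a false discovery rate of 5%, as well as SAM with 100 permutations (median false discovery rate 4.94% in contralateral tissue and 4.89% in tumor). Summaries and plots were made in Python 3.11.15 (pandas 2.3.3, numpy 2.4.6, matplotlib 3.10.9, scipy 1.17.1). Scripts were tested on simulated data. Tumor and contralateral samples with the same number come from 1 rat: their residuals correlated with a median of 0.31 (0.0972 to 0.649, 11 pairs), against -0.06 between different rats. The study ran in 2 sessions that the labels do not assign to rats; replicates are separate rats.

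The receptor genes, companion lists and marker lists were chosen with earlier results of these data known. Named genes are those called after MRT or, with fewer than 6 calls, the 6 with the smallest p in each tissue; the gene with the highest untreated contralateral mean of each family; and the 8 largest decreases and all called increases in untreated tumor. Others are named in the text as chosen after their values were seen or as exceptions to a count. The named-gene results of 3 receptor genes are not reported here; the counts include them and the plots by family leave them out.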

Additional observations from a re-analysis of the deposited data

Results flagged for a closer look

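Single rats stood apart from the rest of their group in 6 of 100 groups of 25 named genes, by the gap to the nearest other sample relative to the group's range; chance alone gives about 1 in 20. In MRT contralateral tissue, rat 7 was highest for Gabbr1 (13.1941, next 12.6073) and Grik4 (8.9658, next 8.3487), and rat 6 was highest for Chrna5 (5.6439, next 5.3219). In MRT tumor, rat 7 was highest for Chrnb4 (7.1599, next 6.7682). In untreated tumor, rat 5 was lowest for Chrna1 (5.9773, next 7.3750) and highest for Gabra4 (8.9425, next 6.8455). All values are log2 RMA signal, and both Chrna5 values lie below the 25th percentile of signals, 5.86.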

How the results depend on the processing

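The count of 3 receptor genes called after MRT in contralateral tissue became 1 of 41 genes measured under a level filter, 1 with all 4 groups in 1 fit and 0 within the steep set of rats, and was 3 to 4 when 1 rat was left out. In tumor and in the interaction it stayed at 0 under all alternatives run, leaving out each rat included (0 to 0). The 70 receptor genes called between tissues in untreated rats became 39 of 41 under the level filter (median -1.30) and 0 within the flat set, which holds 2 untreated rats, and were 59 (without rat 4) to 71 (without rat 5) with 1 rat left out. In MRT rats the 70 became 36 of 38 under the level filter (median -1.31) and were 65 to 70 with 1 rat left out. The level filter kept probe sets whose highest group mean in the comparison was above the median of all signals. Between tissues a gene could pass on its contralateral level alone, so the filtered counts and medians say nothing further on direction. Drd1a turned from higher to lower in untreated tumor within the flat set (-1.0433) and without rat 2 (-0.0352; with 1 rat left out it ran from -0.0352 to 0.6031). Cyclic loess moved the median of all probe sets between tissues of untreated rats from -0.12 to -0.01, with 60 receptor genes called, 58 of them lower, and centring on Atp5b and Arpc1a gave 62.

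With the rat as a block, pairing the tissues of each animal, 68 receptor genes were called in untreated rats (67 shared with the unpaired fit), 71 in MRT rats (70 shared) and 0 in the interaction. The block ended the calls of Drd5, Chrng and Gabrr1 and added Htr1d in untreated rats, and added Chrnb4 in MRT rats; no other receptor call changed.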

Other observations

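The 3 probe sets of Grm8, a metabotropic glutamate receptor gene, gave unlike values after MRT, and none was called: the brightest (1371242_at) gave -0.07 in contralateral tissue, 1369391_at gave -0.41 there (adjusted p = 0.0925), and 1371243_at gave -0.50 in tumor (adjusted p = 0.0822).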
